A study of Homo sapiens with 19 samples.

Results

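Bone morphogenetic proteins (BMPs) are secreted ligands of the TGFB superfamily. They bind pairs of type I and type II serine/threonine kinase receptors, which phosphorylate SMAD1, SMAD5 and SMAD9, and these enter the nucleus with SMAD4 and switch on genes such as the ID family. Secreted antagonists such as Noggin and Chordin trap the ligand outside the cell, and in the early embryo the balance of ligand and antagonist patterns the ectoderm and the mesoderm. BMP4 added to human embryonic stem cells drives them out of the pluripotent state.

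The genes described here are 10 members of this pathway, namely the ligands BMP2, BMP4, BMP7 and GDF10, the secreted antagonists NOG, CHRD, GREM1 and TWSG1, and the receptors BMPR1A and BMPR2, out of 20503 genes with a named probe. They were chosen by name with their measured time courses already known, so their levels are given as a description and without a test. KhES-3 is a line of human embryonic stem cells, which the sample labels place on a layer of irradiated mouse embryonic fibroblasts before use, whereas the methods of the study describe a culture without feeder cells. Its cells were moved to low-attachment dishes in a serum-free medium for differentiation into brown adipocytes (BAs) that contained BMP4 itself, with IGF-II, VEGFA, KITLG, FLT3LG and IL-6. There were 19 samples, at 3 and 4 h after the start of this induction, every 2 h from there to 16 h, every 4 h to 36 h and every 6 h to 72 h, each read on 1 one-colour Agilent array. All received the same medium, and no untreated culture, culture without BMP4 or sample from the moment of induction was analysed here. The spread between cultures at one time is therefore unknown, and the error given is the scatter of the arrays around a line.

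Signals are Agilent processed intensities scaled so that the 75th percentile of every array is 690. The unscaled percentile lay between 526 and 800, with a median of 725. A probe is called well above background where the scanner software flags it so, which held for 49.5% to 64.7% of the probes on an array (median 61.0%). The arrays lay on 3 slides, with 6 arrays (3 to 12 h) on the first, 8 (14 to 42 h) on the second and 5 (48 to 72 h) on the third, which was scanned on a later day. At the change of slide from 12 to 14 h the typical gene moved by 0.26 on the log2 scale, more than between any neighbouring times within a slide (0.092 to 0.22), and from 42 to 48 h it moved by 0.16. A difference between slides and one between the times they hold cannot be told apart, so values within slides are given as well. The 66 and 72 h arrays had the lowest unscaled percentiles (526 and 535) and the strongest spike-in signals, and the counts of the other pathway genes are also given without them.

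The label of the cells was checked against 7 stem cell markers, of which 6 had a named probe. All 6 (POU5F1, SOX2, NANOG, LIN28A, DNMT3B and SALL4) were well above background on all 19 arrays, and their summed signal lay between 458418 (72 h) and 689159 (8 h), with a median of 532830 and POU5F1 as the brightest. Since the sources differ on feeder cells, 10 fibroblast markers were read as well, although the probes are human and a feeder cell would be murine. COL1A1, COL1A2 and THY1 were well above background on all 19 arrays and PDGFRB on 17, whereas DCN was so on 9, POSTN and TWIST2 on 2 each, COL3A1 and LUM on 1 each and FBN1 on none. Their summed signal ranged from 26115 (48 h) to 45763 (72 h) around a median of 30572. THY1, which stem cells carry too, was the brightest on every array. The part of these markers in the values below was not tested.

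The 250 bases before the start of transcription are shown for GDF10 and GREM1 and for BMPR1A, a member with little change. GDF10 and GREM1 had the steepest lines over time among the members in the fit that leaves the slide out of account. The sequences come from RefSeq (GRCh38.p14), 5′ to 3′ on the plus strand. Capitals mark GGCGCC, a GC-rich word that SMAD1 and SMAD5 bind in the ID1 promoter and that is its own reverse complement.
GDF10, chr10:47299947-47300196: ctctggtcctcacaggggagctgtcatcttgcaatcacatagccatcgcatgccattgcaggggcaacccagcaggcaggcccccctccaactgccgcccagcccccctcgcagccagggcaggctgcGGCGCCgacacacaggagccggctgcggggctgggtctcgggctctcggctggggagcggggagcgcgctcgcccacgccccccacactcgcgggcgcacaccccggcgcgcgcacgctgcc
GREM1, chr15:32717754-32718003: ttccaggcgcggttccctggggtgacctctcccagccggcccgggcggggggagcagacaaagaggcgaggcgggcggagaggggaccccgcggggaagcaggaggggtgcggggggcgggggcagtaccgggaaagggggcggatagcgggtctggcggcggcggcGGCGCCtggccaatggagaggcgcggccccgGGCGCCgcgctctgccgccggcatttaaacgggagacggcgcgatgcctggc
BMPR1A, chr10:86755513-86755762: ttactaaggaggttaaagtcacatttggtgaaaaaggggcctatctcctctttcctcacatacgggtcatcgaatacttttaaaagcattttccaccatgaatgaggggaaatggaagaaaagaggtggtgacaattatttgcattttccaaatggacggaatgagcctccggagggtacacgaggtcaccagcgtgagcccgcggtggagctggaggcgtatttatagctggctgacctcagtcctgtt
The GDF10 window holds the word once, 122 bases before the start, the GREM1 window shown holds it 2 times and the BMPR1A window not at all. A second GREM1 window in the table, chr15:32718234-32718483, does not hold it. Of all 35116 windows of this length 16.4% hold it. Windows were found for 7 of the 10 members, 10 windows in all, and 5 of them hold it, 1 each of BMP4, GDF10, CHRD, GREM1 and BMPR2. CHRD and BMPR2 also had small fitted log2 changes from 3 to 72 h, 0.29 and 0.11, against -0.29 for BMPR1A. TWSG1, at 0.14, does not hold the word. The windows differ in base composition, with 73.6% G and C for GDF10 and 76.8% for GREM1 against 47.2% for BMPR1A. The palindrome GTCTAGAC, a site of SMAD3 and SMAD4, is in none of the 10 windows and in 0.182% of all. These matches describe letters in a window and no more.

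All 10 members had a probe that was well above background on at least 5 arrays, and 8 had one on all 19. By the brightest probe, 16694 of the 20503 named genes were so on at least 5 arrays and 13969 on all 19. GDF10 was well above background on 14 arrays and BMPR2 on 13. Over the 19 arrays 6 of the 10 members varied more than the median gene, whose standard deviation (SD) was 0.31 on the log2 scale. A straight line of log2 signal on hours, fitted over the 32113 probes with enough signal, was negative for 7 of the 10 members. The median slope over all 16694 genes tested was also negative (-0.0012 log2 units per hour). At least as many genes thus had a negative line as a positive one, and 7 of 10 is not read as a trait of the members. The median difference of the members, late (60, 66 and 72 h) minus early (3, 4 and 6 h), was -0.44 on the log2 scale. Over all genes tested it was -0.11. Since the members were chosen with these courses known, no test of them is given and nothing is read from these values. In a bulk sample, fewer cells that express a gene and less of its RNA per cell cannot be told apart.

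Of the ligands, GDF10 (NM_004962), also called BMP3B, a divergent member of the BMP3 branch, had the widest range. In order of time its signal was 74.5, 102, 109, 115, 110 and 97.2 on the first slide, 51.6, 71.9, 71.5, 52.1, 35.4, 37.7, 21.3 and 47.3 on the second, and 33.6, 28.7, 9.94, 14.2 and 11.8 on the third. The arrays of 14, 36, 60, 66 and 72 h were not well above background. All arrays of the first slide were higher than every later array, and the signal was highest at 8 h. The mean of the 3 latest arrays (60, 66 and 72 h) was 2.89-fold below that of the 3 earliest (3, 4 and 6 h). For this fold each late array was set to its dimmest probe well above background. That level is not a strict limit of detection, so the fold is not a strict bound. With normexp background correction and quantile normalization the log2 difference of late minus early was -1.10. The slope, given here and below with its standard error (SE), was -0.0468 ± 0.00441 log2 units per hour. It includes the arrays not well above background, so its size is uncertain, and no rank among the genes is given. Within the first slide the slope was 0.0309, within the second -0.0376 and within the third -0.0674, so the direction on the first slide was opposite to that on the later slides.

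BMP2 (NM_001200), which with BMP4 forms the classical ligand pair of the pathway, was 364, 355, 248, 208, 184 and 227 on the first slide in order of time. It was highest at 14 h (435), a step of 0.94 up on the log2 scale that coincides with the change of slide, and then lay between 203 and 326 from 16 to 54 h, with a median of 256 over all arrays. The 3 latest arrays read 146, 224 and 112, all below the 3 earliest, and the window means differed 2.06-fold. Within the slides the slope was -0.0986, -0.0105 and -0.0464, negative in each. Over all arrays it was -0.0107 ± 0.0042 log2 units per hour. The fitted change from 3 to 72 h was -0.73 on the log2 scale, but -0.43 without the 72 h array and -0.063 over the arrays from 3 to 54 h, so it rested on the latest arrays.

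BMP4 (NM_001202), whose protein was also part of the medium, had a median of 432. Its signal was 470, 432, 526, 623, 537 and 482 on the first slide, 514, 674, 488, 380, 374, 252, 291 and 378 on the second and 366, 411, 374, 487 and 307 on the third. The highest array (16 h) and the lowest (32 h) both lay on the second slide. The earliest and the latest windows overlapped, with means of 474 and 383. The slope was -0.0089 ± 0.0033 log2 units per hour, and 0.0208, -0.0347 and -0.0044 within the slides.

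BMP7 (NM_001719), a ligand that also signals through the type I receptor ACVR1, was measured by 3 probes, all well above background on every array. The brightest had a mean of 6924 on the first slide, 5071 on the second and 4328 on the third, and all arrays of the first slide (6509 to 7647) were higher than every later array. Its latest arrays were 1.48-fold lower than its earliest. The slope was -0.0109 ± 0.002 log2 units per hour over all arrays, but 0.0047, -0.0074 and 0.0084 within the slides, so that most of the difference over time was one between slides. The other probes gave log2 differences of late minus early of -0.26 and -0.28, against -0.57 for the brightest.

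Among the secreted antagonists, GREM1, Gremlin, which binds BMP2, BMP4 and BMP7, was measured by 2 probes for different transcripts. The brighter (NM_001191323) was 564, 582, 736, 665, 542 and 509 on the first slide, 485, 538, 343, 250, 271, 290, 248 and 348 on the second and 223, 222, 199, 271 and 233 on the third. It was highest at 6 h, and its latest arrays were all below its earliest, with a 2.68-fold difference of the window means. The other probe (NM_013372) was well above background on the first slide alone, where it read 109, 142, 162, 104, 65.8 and 43.8. On the 13 arrays after 12 h it lay between 5.44 and 49.6, not well above background. With the late arrays set in the same way as for GDF10, this probe was 4.18-fold lower late than early. Its log2 difference was -1.43 with normexp and quantile normalization. Both probes were highest at 6 h, and the detected signal of the dimmer probe went from 162 to 43.8 within the first slide. Across the 19 arrays the probes had an r of 0.91, and 0.78 on the first slide, as a description of arrays that share slides. The slope of the brighter probe was -0.0239 ± 0.00344 log2 units per hour. Within the slides it was -0.0208, -0.0264 and 0.007, so the line was positive on the third slide.

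NOG (NM_005450), Noggin, which binds BMPs with high affinity, did not follow a line. Its signal was 604, 674, 312, 334, 395 and 592 on the first slide, 543, 284, 612, 930, 954, 657, 1073 and 185 on the second and 303, 203, 366, 411 and 199 on the third. The arrays of 24, 28 and 36 h were higher than all others, and the highest array (36 h) and the lowest (42 h) were neighbours on one slide. The step between them was -2.54 on the log2 scale, 5.81-fold. It was picked as the largest step of NOG, so no rank among the genes is given. With 1 sample per time, a change with time and a property of that one sample cannot be told apart. The slope was -0.014 ± 0.0073 log2 units per hour.

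CHRD (NM_003741), Chordin, the other classical antagonist of the embryo's organizer, lay between 310 (10 h) and 528 (66 h), with a median of 414. It was 500 at 4 h, between 310 and 333 from 8 to 12 h, and between 392 and 528 from 24 h on. The earliest and latest windows overlapped, with means of 435 and 449, and the dimmer probe had its highest value, 166, at 36 h. TWSG1 (NM_020648), Twisted gastrulation, which binds both BMPs and Chordin and can act for or against the ligand, lay between 324 (6 h) and 607 (36 h). Its mean was 363 on the first slide, 499 on the second and 407 on the third. All 8 arrays of the second slide (450 to 607) were higher than every array of the first (324 to 399), whereas the earliest and latest windows overlapped. The slopes of CHRD (0.0043 ± 0.0021 log2 units per hour) and TWSG1 (0.002 ± 0.0026) turned negative under the array median or the spike-in RNA as the scaling.

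The receptors varied little or were dim. BMPR1A (NM_004329), also called ALK3, a type I receptor for BMP2 and BMP4, was measured by 5 probes, all well above background on all 19 arrays. The brightest was 6117, 6771, 8237, 9321, 8677 and 8869 on the first slide, between 7504 and 9061 on the second, and 7848, 6971, 6039, 6599 and 6669 on the third. Low values thus stood at both ends of the series. On the first slide the slopes of all 5 probes were positive, between 0.0271 and 0.0585 log2 units per hour. Between the earliest and latest windows the log2 difference was -0.12 and -0.14 for 2 probes and 0.10, 0.31 and 0.44 for the others, so the probes disagreed in direction. BMPR2 (NM_001204), the type II receptor, lay between 16.6 (3 h) and 70.7 (6 h), with a median of 38.6. It was not well above background at 3, 14, 16, 20, 36 and 72 h. The scatter around its line was 0.54 (SD, log2). The fitted change of BMPR2 from 3 to 72 h was 0.11 on the log2 scale. Blocking by slide gave 0.66, and the arrays from 3 to 54 h gave 0.81. The array median gave -0.22 and the spike-in RNA -0.41, so the sign depended on the setting. A trend of BMPR2 was not tested.

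Across the 19 arrays the brightest probes of GREM1 and BMP7 had an r of 0.87, those of GREM1 and GDF10 0.86, those of GDF10 and BMP7 0.78 and those of GREM1 and BMP4 0.72. The lowest r between members was that of CHRD and BMPR1A, -0.69, and NOG and GREM1 had one of 0.00072. The points share arrays, slides and scaling.

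The scaling and the slide bear on the direction of some members. The median difference of late minus early over all genes tested was -0.11 on the log2 scale under the 75th percentile, -0.45 under the array median and -0.69 under the spike-in RNA. BMP2, BMP4, BMP7, GDF10, NOG, GREM1 and BMPR1A had a negative line under all 3 scalings, whereas CHRD, TWSG1 and BMPR2 had a positive line under the 75th percentile and a negative one under the others. With normexp background correction and quantile normalization in place of these, the fitted change from 3 to 72 h was 0.092 on the log2 scale for BMPR1A, against -0.29, and -0.12 for BMPR2, against 0.11. That of GDF10 was then -1.21, against -3.23. It was -2.64 in the deposited table, where nearly all dim values are blank. The line of BMPR2 was also negative in the deposited table (-0.18) and without the 3 h array (-0.17). With the slide as a block, the fitted change from 3 to 72 h was -3.01 on the log2 scale for GDF10, -1.87 for BMP2, -1.50 for BMP4 and -1.05 for GREM1. It was -0.53 for NOG and -0.11 for BMP7.

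**Figure D1:**
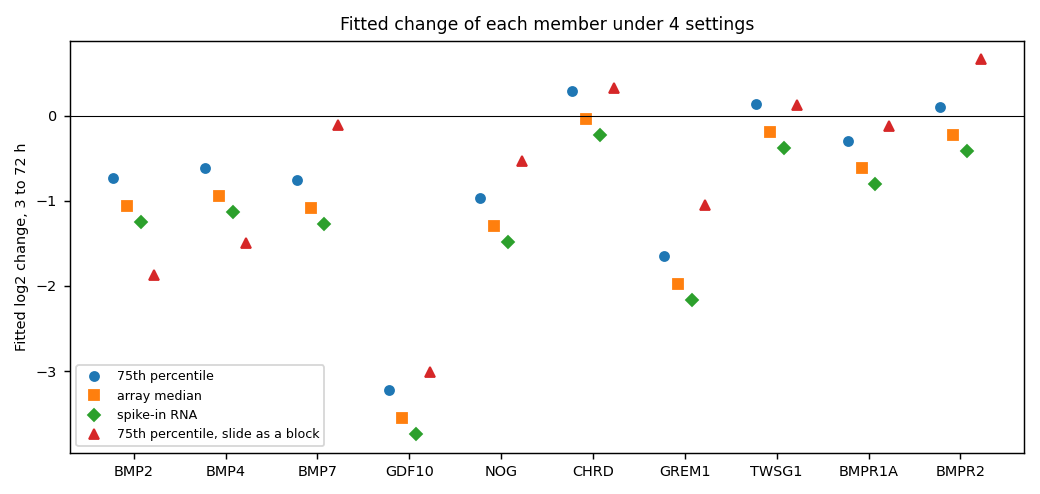
Fitted log2 change from 3 to 72 h (slope times 69 h) of each of the 10 genes under 3 scalings of the arrays and with the slide as a block. GDF10 lies below -3 under the 4 settings drawn (but at -1.21 with normexp and quantile normalization, which is not drawn), and CHRD, TWSG1 and BMPR2 change sign with the scaling drawn, as BMPR1A does with normexp and quantile normalization.

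For GDF10, NOG and GREM1, the 3 members with the largest SD, the genes with the most similar pattern were taken from 16046 others by Pearson's r over the 19 arrays. For GREM1 these were GMNN (r = 0.99), which encodes geminin, an inhibitor of replication licensing, PCNA (0.98), the sliding clamp of DNA polymerase, and GINS3 (0.98), a subunit of the replicative helicase. After the mean of each slide was removed, r was 0.96, 0.93 and 0.91, and with the dimmer GREM1 probe over all arrays it was 0.91, 0.92 and 0.90. For NOG they were HK2 (0.93), a hexokinase, SAP30 (0.92), a subunit of the SIN3 histone deacetylase complex, and PFKFB3 (0.91), which makes an activator of glycolysis. Without the slide means r was 0.92, 0.93 and 0.95. HK2, SAP30 and PFKFB3 also stepped down from 36 to 42 h, with steps of -1.34, -1.22 and -2.10 on the log2 scale. For GDF10 they were GUCD1 (0.98), EFTUD2 (0.97), a GTPase of the spliceosome, and YAE1 (0.97), with 0.90, 0.88 and 0.88 after removal of the slide means. These values too are a description of shared arrays and slides.

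**Figure D2:**
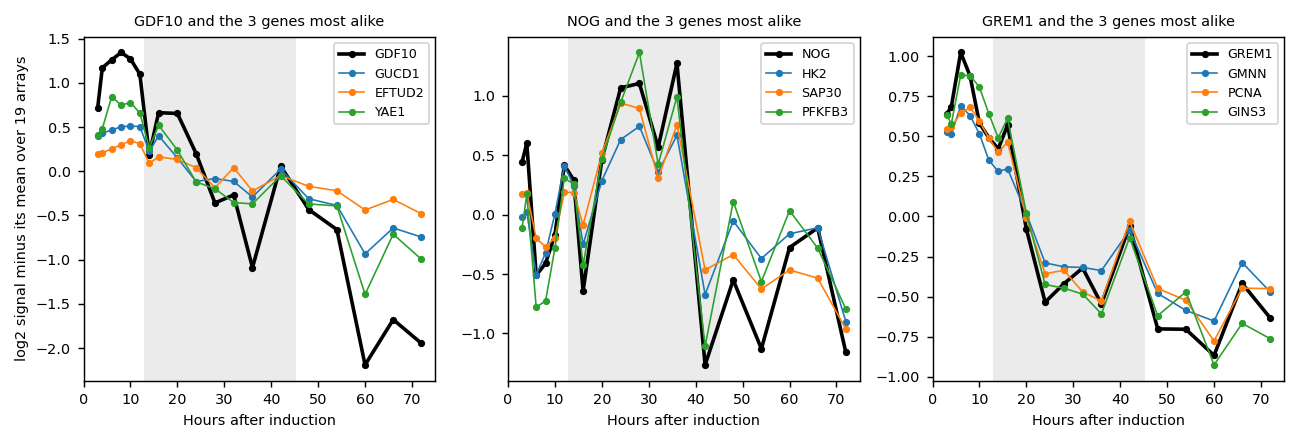
log2 signal of GDF10, NOG and GREM1 (black) and of the 3 genes most alike to each, each minus its own mean over the 19 arrays, against hours after induction. The shaded span marks the second slide. GREM1 and its 3 genes peak at 6 or 8 h, and all 4 genes of the NOG panel step down from 36 to 42 h.

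The other genes of the pathway were taken from a list of 57, grouped by role. Of these 56 had a named probe, and 47 were well above background on at least 5 arrays and entered the fit. These were tested, with adjustment over all 32113 probes, of which 27.4% rose and 24.7% fell by limma. With an adjusted p under 0.05, 7 of the 47 genes rose and 10 fell (14.9% and 21.3%, beside 21.3% and 32.7% of all genes), and the median slope was -0.0005 log2 units per hour, beside -0.0012 over all genes. Without the 66 and 72 h arrays 7 rose and 11 fell, beside 20.3% and 30.8% of all genes. Over the arrays from 3 to 54 h 11 rose and 16 fell, beside 20.3% and 30.9%. With log2 hours 11 rose and 13 fell, beside 21.3% and 33.5%, and among genes well above background on all arrays 3 and 6 of 27, beside 20.3% and 37.3%. With the slide as a block 1 gene rose (ACVRL1) and 1 fell (CHRDL1), beside 4.22% and 5.33% of all genes. Under the array median 3 rose and 17 fell, beside 9.78% and 46.1%, and under the spike-in RNA 2 rose and 15 fell, beside 3.59% and 44.5%. A cubic curve in hours, which has no direction, passed for 38 of the 47 genes (80.9%), beside 79.5% of all genes.

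Of 11 other ligands listed, 6 entered the fit, 2 rose and none fell. GDF7 (NM_182828), a ligand of the dorsal neural tube, had means of 58.7 early and 100.4 late (1.71-fold, limma adjusted p = 0.00559, and 0.494 with the slide as a block). It did not pass under the array median (0.0719), the spike-in RNA (0.783) or normexp with quantile normalization (0.283) either. BMP8A rose (limma adjusted p = 0.0138), but did not pass under those 3 settings, had a negative line in the deposited table (fitted change -0.25 against 1.40 on the log2 scale) and was well above background on 7 arrays, none of them among the 3 earliest and 1 among the 3 latest. BMP3, BMP5, BMP15, GDF2 and GDF6 were well above background on 1 or 2 arrays each. The brighter probe of BMP8B lay between 22237 and 52211 on all 19 arrays and did not pass, with a log2 difference of late minus early of 0.62 and a step of 0.86 at the change of slide from 12 to 14 h. Its other probe was well above background on 1 array, and BMP8A and BMP8B are closely related neighbouring genes.

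Of 10 other receptors and co-receptors, 9 entered the fit, 1 rose, 2 fell and 6 did not pass. ACVRL1 (NM_000020), also called ALK1, a type I receptor known from endothelial cells, read 16.3, 14.0 and 15.4 on the 3 earliest arrays, none well above background. It was highest at 54 h (85.1) and read 55.8, 71.0 and 57.1 on the 3 latest, 2 of them well above background. With each of the earliest arrays set to its dimmest probe well above background, ACVRL1 was 2.79-fold higher late than early. Its log2 difference of late minus early was 0.45 with normexp and quantile normalization. Its slope was 0.0392 ± 0.00475 log2 units per hour (limma adjusted p = 1.68e-06), and the adjusted p was 0.0421 with the slide as a block. The fitted change was 2.71 on the log2 scale, but 0.65 with normexp and quantile normalization. RGMA (NM_020211), a co-receptor that binds BMP2 and BMP4, fell 1.94-fold, from 1139 to 587 (limma adjusted p = 0.000233), but did not pass over the arrays from 3 to 54 h (0.178). ACVR1 (NM_001105), also called ALK2, fell 1.48-fold, from 1631 to 1104 (limma adjusted p = 0.0006). Its dimmer probe, also well above background on all arrays, gave a 1.41-fold difference and did not pass (limma adjusted p = 0.0977). With the slide as a block the adjusted p was 0.084 for RGMA and 0.543 for ACVR1. BMPR1B was not well above background on any array.

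Of 12 other secreted antagonists, 10 entered the fit, 2 rose and 6 fell. CER1 (NM_005454), Cerberus, which binds NODAL and BMPs, read 142, 162 and 194 on the 3 earliest arrays and 22.9, 68.1 and 13.1 on the 3 latest, of which 1 was well above background. It had the steepest slope among them, -0.0459 ± 0.00729 log2 units per hour (limma adjusted p = 3.72e-05, and 0.405 with the slide as a block). The fitted change was -3.16 on the log2 scale, but -1.44 with normexp and quantile normalization and -1.80 with the slide as a block. CHRDL1 (NM_001143981), a relative of Chordin, fell 2.26-fold, from 978, 854 and 840 on the earliest arrays to 575, 383 and 277 on the latest (limma adjusted p = 1.28e-06, and 0.0325 with the slide as a block). Its dimmer probe (NM_145234), also well above background on all arrays, fell 1.48-fold, and its adjusted p with the slide as a block was 0.345. CHRDL2 (NM_015424), another relative, fell from a mean of 67.6 to one of 26.9, with 1 of the 3 latest arrays well above background (limma adjusted p = 7.29e-06, and 0.152 with the slide as a block). Its fitted change was -1.61, and -0.64 with normexp and quantile normalization, and its other probe gave a 1.72-fold difference of the window means. The others that fell were FST, DAND5 and SOST, and each lost its call with the slide as a block. FST also lost it with normexp and quantile normalization, and SOST over the arrays from 3 to 54 h. DAND5 also lost it with log2 hours, over the arrays from 3 to 54 h, and without the 66 h array or both the 66 and 72 h arrays. FSTL3 (NM_005860), a relative of follistatin, rose 1.41-fold (limma adjusted p = 0.00713), but did not pass without the 66 and 72 h arrays, over the arrays from 3 to 54 h, with log2 hours, under the array median or under the spike-in RNA. BMPER, which binds BMPs outside the cell, rose (limma adjusted p = 0.0342), and did not pass under the array median, the spike-in RNA or normexp with quantile normalization, over the arrays from 3 to 54 h, without a filter on dim probes, without the 66 and 72 h arrays, or when any 1 of the 3, 4, 54 or 66 h arrays was left out. With the slide as a block its line was negative (fitted change -0.34 against 0.80 on the log2 scale).

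Of the 5 secreted proteases and modulators 3 entered the fit. CRIM1, which tethers BMPs at the cell surface, rose (limma adjusted p = 0.0273) although it was well above background on 7 arrays, none of them in either window, and it did not pass under the spike-in RNA, under normexp with quantile normalization (0.231) or when the 3, 4, 6 or 8 h array was left out. Its line was negative with the slide as a block (fitted change -0.49 against 2.12 on the log2 scale) and in the deposited table (-1.20), and its step from 12 to 14 h, at the change of slide, was 2.65, with slopes of 0.0062, 0.0046 and -0.0315 log2 units per hour within the slides. Of the 4 SMADs, SMAD1 (NM_005900), a main carrier of the BMP signal, fell 2.33-fold, from 2331, 2759 and 3025 on the earliest arrays to 1290, 1224 and 975 on the latest. Its slope was -0.0186 ± 0.0016 log2 units per hour (limma adjusted p = 2.73e-08, and 0.0568 with the slide as a block). SMAD4, SMAD5 and SMAD9 did not pass, with log2 differences of late minus early of -0.18, -0.15 and -0.11.

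The cubic curve passed for all 5 feedback inhibitors and for 7 of 10 target genes, beside 79.5% of all genes. SMAD7 (NM_005904), an inhibitory SMAD, fell 3.31-fold (limma adjusted p = 0.00464, and 0.407 with the slide as a block) and was the 1 of 5 feedback inhibitors to pass. It read 2972, 2867 and 2975 on the earliest arrays, was lowest at 36 h (545) and read 594, 1249 and 941 on the latest. BAMBI, a decoy receptor, was highest at 4 h (49725), lowest at 24 h (18412) and 42976 at 66 h. Of 10 target genes HAND1 (NM_004821), a transcription factor of mesoderm and extraembryonic tissue, rose 4.71-fold (limma adjusted p = 9.96e-05, and 0.149 with the slide as a block), with 114, 633 and 173 on the latest arrays, and none fell. Its fitted change was 3.11 on the log2 scale, 1.46 with normexp and quantile normalization and 3.75 with the slide as a block. ID1, a direct SMAD1 target, was highest at 4 h (236935), lowest at 28 h (45342) and had a mean of 117354 over the latest arrays. ID3 and ID4 were highest at 3 h and lowest at 32 and 28 h. The probes of ID2 were both lowest at 32 h but disagreed on the peak, the brighter being highest at 3 h (20314) and the other at 60 h (9879).

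**Figure D3:**
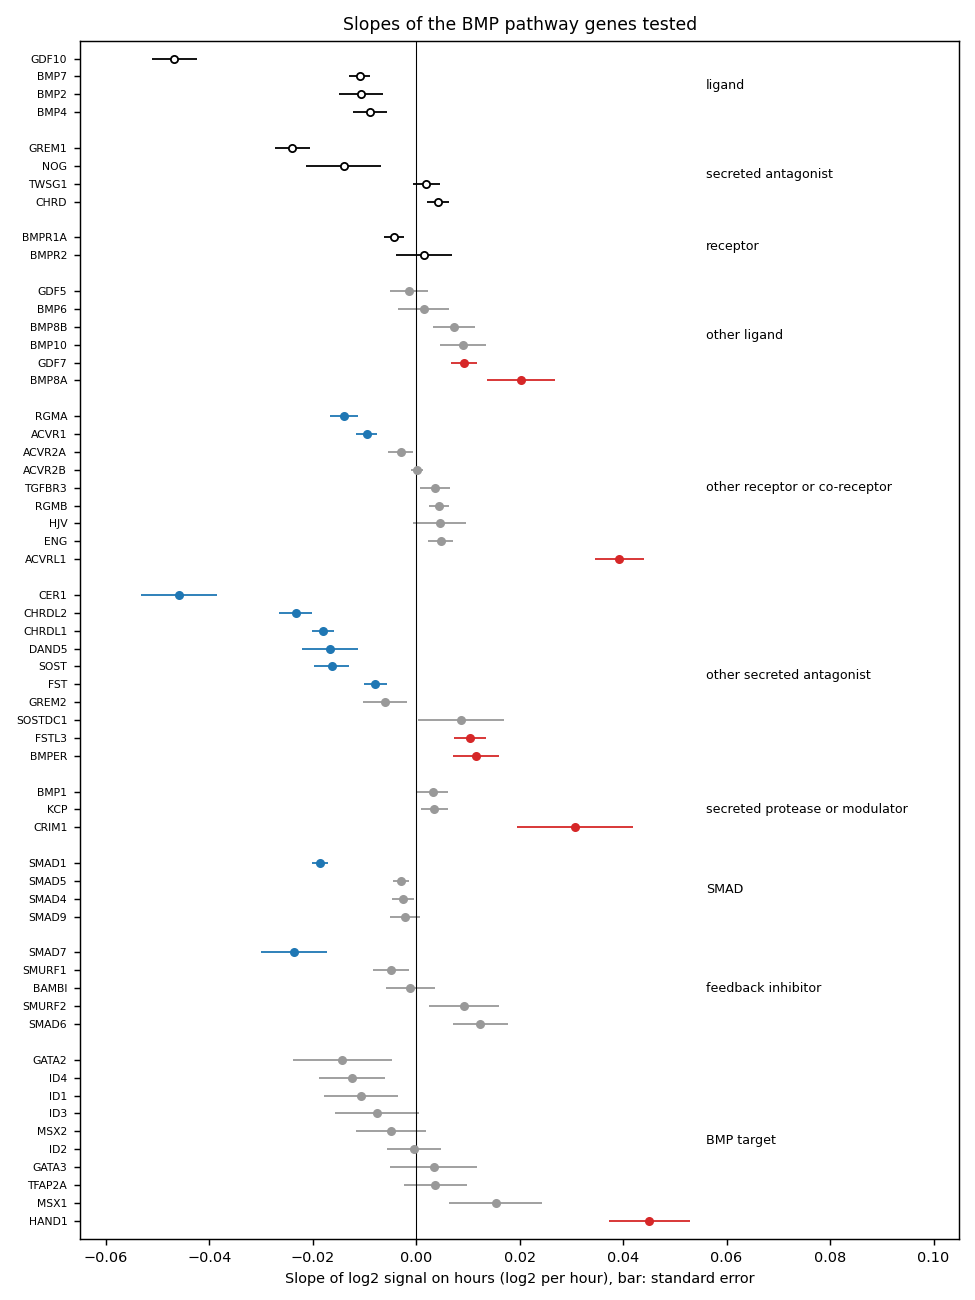
Slope of log2 signal on hours (log2 units per hour) for each gene of the pathway that entered the fit, grouped by role, with its standard error as a bar. Open black points are the 10 genes chosen with their slopes known, filled red and blue points rose or fell at a limma adjusted p under 0.05, and grey points did not pass. CER1 and HAND1 are the extremes of the filled points.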

How the data were processed

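Total RNA of 19 KhES-3 samples, 1 per time point, was labelled with Cy3 and hybridized to SurePrint G3 arrays. The authors deposited the output of Agilent Feature Extraction (10.10.1.1, per the submitters' processing notes), in which the processed intensity is background-subtracted and detrended within an array, with a flag of 0 or 1 per spot for well above background, also as the authors deposited it. They also deposited a table of intensities, used as an alternative. Almost all its values are close to the processed intensity times 1 factor per array, with a 75th percentile of 716 to 726 on every array. It is blank for 99.6% to 100% of the spots not well above background on an array. No depth exists for arrays, and their number limits the precision.

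Spots flagged as outliers (0.632%) were left out, spots of a probe averaged, and the log2 intensity scaled to the 75th percentile over 50683 probes. Of these, 28174 were named through their RefSeq accession (GRCh38.p14 table, 20503 symbols). NBL1 and TDGF1 were not matched. A gene is its probe with the highest mean. Slopes on hours came from limma (lmFit and eBayes, version 3.58.1, under R 4.3.3), with Benjamini-Hochberg adjustment over 32113 probes and a threshold of 0.05, after a test on simulated data. Folds are differences of mean log2 signal between windows. Python 3.11.15 made the tables. No p-value adjusted over a list is given.

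Named are the 10 members, in each list at most 3 genes per direction that passed (steepest first), and the 3 genes most alike to each of 3 members. Outside this rule FST, DAND5, SOST, the ID genes, BAMBI, the untested ligands, BMP8B, BMPR1B and the SMADs that did not pass were named after their values were seen. Members and lists were chosen with earlier results of these data known. Alternatives were other scalings, normexp on median signals with quantile normalization, the deposited table, other filters, log2 hours, the slide as a block, the mean of a gene's probes, the arrays to 54 h, and each array left out. A cubic curve and leaving out 66 and 72 h were added after seeing the data.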

Additional observations from a re-analysis of the deposited data

How the results depend on the processing

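No paired analysis was possible because no time point has more than 1 array. Of the other pathway genes 7 rose and 10 fell. These counts were 3 and 17 with the array median, 2 rising with the spike-in RNA, 1 and 1 with the slide as a block, 3 and 6 over probes well above background on all arrays (27 genes tested), 11 rising with log2 hours, and 11 and 16 over the arrays from 3 to 54 h. Of all 32113 probes 8798 rose and 7935 fell, with 4323 rising with the array median, 1485 rising with the spike-in RNA, and 1567 and 1289 with the slide as a block. Each array left out in turn gave 6 to 9 other pathway genes rising and 9 to 10 falling, 8225 to 9040 probes rising and 7396 to 8122 falling, and 7 to 8 members with a falling line. The number of members with a falling line was 7 and went to 10 with the array median or the spike-in RNA. Under these 2 scalings the median difference of late minus early over all genes tested was -0.45 and -0.69 on the log2 scale. Of all genes 46.1% and 44.5% fell by limma under them, beside 9.78% and 3.59% that rose. The 10 of 10 is therefore not read as a trait of the members. Directions reversed for BMP8A (-0.25) and CRIM1 (-1.20, fitted log2 change from 3 to 72 h) in the deposited table, and for BMPER (-0.34) and CRIM1 (-0.49) with the slide as a block. Among the members the sign turned for BMPR1A (-0.29) with normexp (0.092) and the mean of its probes (0.04), and for BMPR2 (0.11) with normexp (-0.12), the deposited table (-0.18) and without the 3 h (-0.17) or 48 h array (-0.014), as well as for CHRD, TWSG1 and BMPR2 under the array median and the spike-in RNA. The cause was not tested, other than that the blanks of the table leave fewer arrays. The deposited table, normexp followed by quantile normalization, a fit that kept dim probes, the mean of a gene's probes (for the counts of pathway genes and members), and leaving out the 66 and 72 h arrays left these counts within 1.5 times. Signals near the background, as for BMPR2 and late GDF10, limit what can be seen.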
